A study of Linum usitatissimum with 4 samples.

Results

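The subject is a set of cytosines in the CHH context (H stands for A, C or T) that differed in methylation from an untreated control in flax seedlings and that lie between 2 and 10 kb from the nearest annotated gene start. Members are all rows of the authors' 3 CHH tables whose absolute distance to a transcription start is above 2000 bp and up to 10000 bp, with negative distances read as upstream of the start and positive ones as downstream. The rule uses position only, and it took 659 of 1596 CHH listings (41.3%, 95% interval 38.9 to 43.8), out of 1894 listings in all contexts. A listing is 1 cytosine in 1 comparison, so the 659 listings are 581 different cytosines, near 184 genes on 15 chromosomes. There are 347 upstream listings (304 cytosines, 97 genes) and 312 downstream listings (277 cytosines, 87 genes), and 0 genes have members on both sides. A downstream cytosine can lie inside the gene or beyond its end, and exons and introns were not analysed here.

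Plant genomes carry methylated cytosines in CG, CHG and CHH contexts. CHH sites have no cytosine in the same context on the opposite strand, so their methylation has to be set anew after each round of DNA replication. Plants do this by RNA-directed DNA methylation, in which small RNAs guide DRM methyltransferases, and by the chromomethylase CMT2, and the mark is typical of transposons and other repeats, many of which lie between genes. 5-azacytidine is a cytidine analogue that is built into DNA and traps DNA methyltransferases, so that methylation is lost as cells divide.

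The measurements come from whole-genome bisulfite sequencing of shoot apices of the flax cultivar JRF-2 (Linum usitatissimum), labelled as 21-day-old seedlings, with 1 library for each of 4 groups. The control was grown at 22 ± 2 °C without treatment, the heat group was kept at 40 ± 2 °C for 4 h on each of 5 days, the 5-azacytidine group came from seeds soaked in 1 mM of the drug for 24 h and was not heated, and the combined group had the soak and then the heat. Heated seedlings were returned to the culture room to recover, for a time the labels do not give. Each library pools 10 seedlings and stands alone in its group, so replicate error is lacking and no test between groups was possible. All 3 comparisons use the same control library, so their values are given side by side and a repeat of a cytosine in several comparisons is no independent repeat. The read depth behind each site is unknown, and cytosines that are not listed may or may not have differed. Differences are the authors' own, in percentage points of methylation, read as treated minus control. Intervals on shares are exact binomial, cover counting error only, and treat cytosines as independent, although cytosines of 1 gene are neighbours and can share reads.

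The window took a like share of the CHH listings in the 3 comparisons. It held 47 of 123 CHH listings for heat (38.2%), 183 of 455 for 5-azacytidine (40.2%) and 429 of 1018 for the combined treatment (42.1%). Closer to gene starts, up to 2 kb, lay 303 listings (19.0%), and 634 (39.7%) lay beyond 10 kb. Of the members 52.7% were upstream (48.8 to 56.5), against 66.3% (60.7 to 71.6) of the nearer listings and 59.1% (55.2 to 63.0) of the farther ones. For heat 31 of 47 members were upstream (66.0%, 50.7 to 79.1), for 5-azacytidine 89 of 183 (48.6%, 41.2 to 56.1) and for the combined treatment 227 of 429 (52.9%, 48.1 to 57.7). The nearer and farther listings were 64.0% and 56.9% upstream for heat, 67.3% and 61.5% for 5-azacytidine, and 66.1% and 58.4% for the combined treatment. By listings the upstream share in the window was thus below both other zones for 5-azacytidine and for the combined treatment. For heat, which has few members, it was not. The farther listings have intervals of 53.8 to 68.8 for 5-azacytidine and 53.5 to 63.3 for the combined treatment, which overlap those of the window. By genes the combined treatment had 85 upstream and 67 downstream in the window but 47 and 48 beyond 10 kb. That order was thus not kept by genes. For 5-azacytidine the gene counts were 44 and 46 in the window and 33 and 29 beyond 10 kb.

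Within the window the median distance to the start was shorter for upstream than for downstream cytosines in each comparison. For the combined treatment the median distance was 4890 bp upstream and 5657 bp downstream, and 118 of 227 upstream members (52.0%, 45.3 to 58.6) but 78 of 202 downstream members (38.6%, 31.9 to 45.7) lay within 5000 bp. For 5-azacytidine the medians were 4840 and 5947 bp, with 47 of 89 (52.8%) and 33 of 94 (35.1%) within 5000 bp. For heat the medians were 4086 and 5400 bp, with 17 of 31 (54.8%) and 7 of 16 (43.8%). The fullest 1 kb of the upstream side was 3000 to 4000 bp from the start, with 8 heat, 16 5-azacytidine and 48 combined listings. Downstream it was 5000 to 6000 bp, with 5, 15 and 37.

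**Figure D1:**
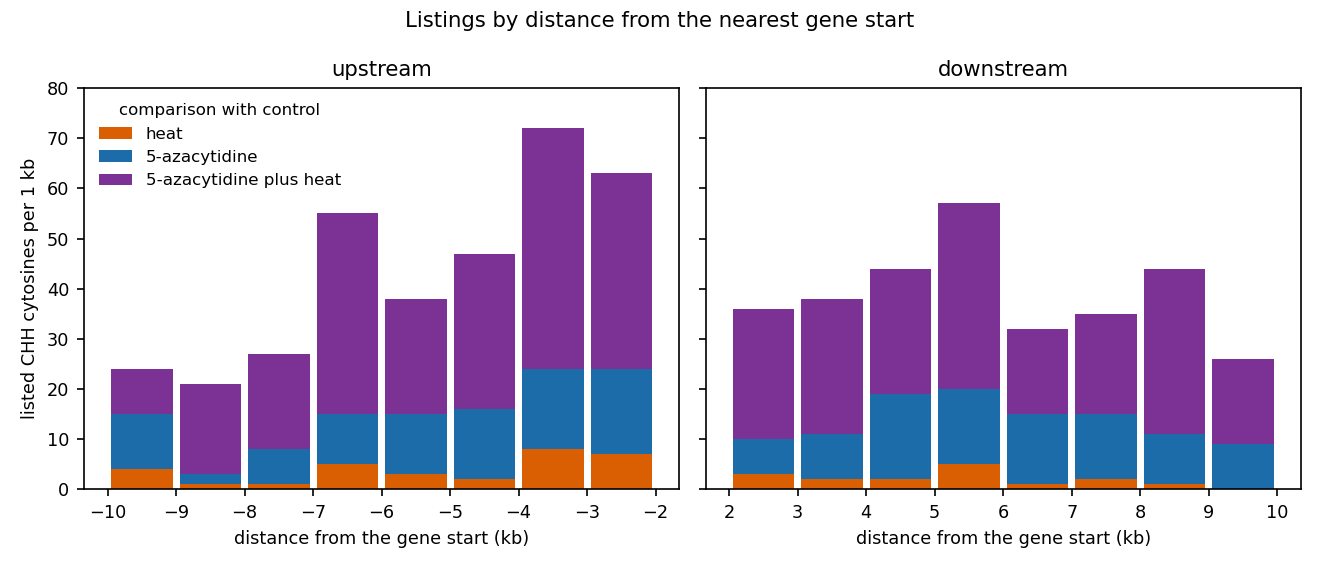
Number of listed CHH cytosines (y axis) per 1 kb of distance from the nearest gene start (x axis, kb), upstream on the left and downstream on the right, with the 3 comparisons stacked by colour. Upstream listings are most numerous between 2 and 4 kb, while the downstream side is highest between 5 and 6 kb.

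In the heat comparison most of the listed cytosines were less methylated than in the control. Of the upstream members 28 of 31 were lower than the control (90.3%, 74.2 to 98.0), near 21 genes, and of the downstream members 16 of 16 were lower (100%, 79.4 to 100), near 14 genes. Over all CHH listings of the heat comparison, at any distance, 89.4% were lower, so the share in the window is close to that background. The median absolute difference was 11.9 points upstream (10.4 to 15.4) and 9.89 points downstream (8.74 to 15.1), and these intervals overlap. The lowest heat sites were upstream, where the authors' deposited table has -92.3 points 4148 bp before the start of Lus10033130, which has no description, and -39.2 points 5569 bp before Lus10008263, described as lysine histidine transporter-like 5, an amino acid carrier. Downstream the authors' deposited table gives -50.7 points at 5249 bp for Lus10015602, without a description, and the next lowest value is -16.8 points.

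5-azacytidine alone gave a similar picture with more sites. Lower methylation was found at 83 of 89 upstream members (93.3%, 85.9 to 97.5), near 44 genes, and at 85 of 94 downstream members (90.4%, 82.6 to 95.5), near 46 genes. The background over all CHH listings of this comparison was 93.4%. The medians of the absolute difference were 10.2 points upstream (9.00 to 10.6) and 10.1 points downstream (9.41 to 11.1). Among the members with a q-value below 0.001 the downstream side was split, with 7 lower and 6 higher of 13, against 7 lower and 1 higher of 8 upstream. Of those 6 higher sites, 5 belong to Lus10011702, described as related to the E3 ubiquitin ligase ATL42, an enzyme class that marks proteins for breakdown. The matching split over all CHH listings at this q limit is not given here. The downstream split is therefore not read as a trait of the window.

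The combined treatment had the most listings, and nearly all were lower. Lower values were found at 220 of 227 upstream members (96.9%, 93.7 to 98.8), near 85 genes, and at 199 of 202 downstream members (98.5%, 95.7 to 99.7), near 67 genes. Over all its CHH listings 97.6% were lower, which lies within both intervals. The median absolute difference was 9.50 points upstream (8.96 to 10.3) and 9.01 points downstream (8.69 to 9.80). Over the 3 comparisons 631 members were lower and 28 higher, and the sides did not separate in direction or in median size beyond their intervals in any comparison.

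**Figure D2:**
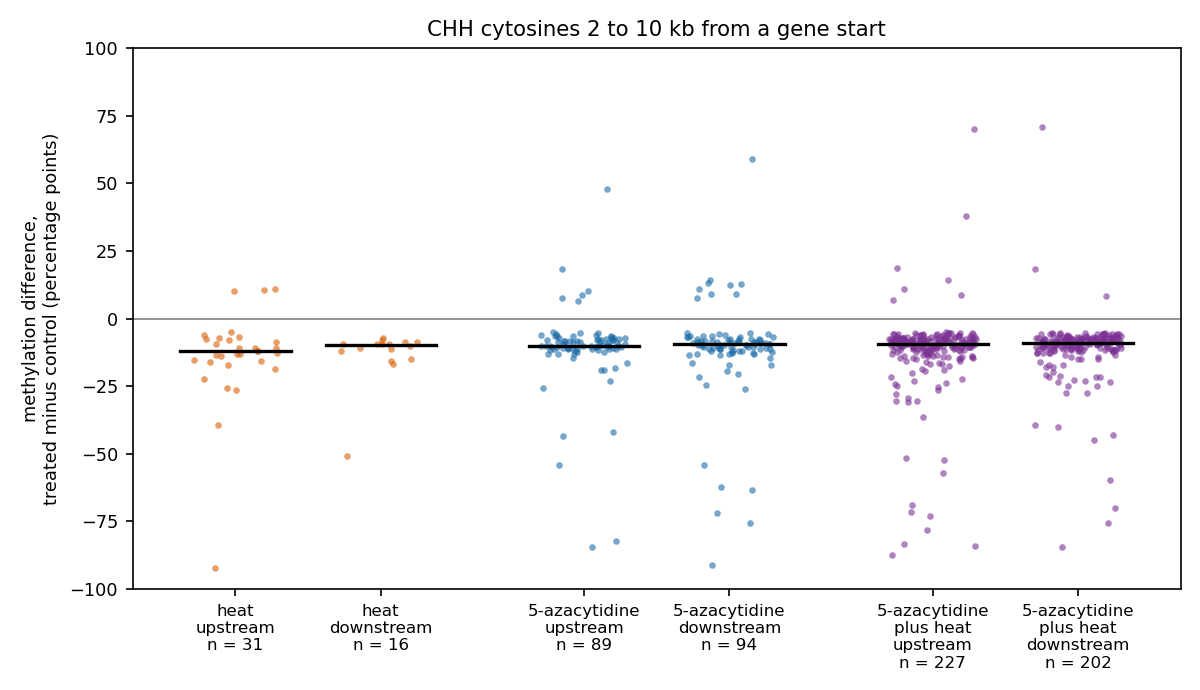
Methylation difference of every member (y axis, percentage points, treated minus control) by comparison and side (x axis), with a bar at the median of each group. Most points lie 5 to 25 percentage points below 0, with a thin tail down to -92.3 and with 28 listings above 0. The gap around 0 is there because the smallest absolute difference in the 3 tables is 5.01 points.

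Differences of 25 points or more were rare and mostly stood alone. They made up 5 of 47 heat members, 15 of 183 5-azacytidine members and 32 of 429 combined members, where the backgrounds over all CHH listings were 10.6%, 8.57% and 8.15%. By side there were 4 upstream and 1 downstream for heat, 7 and 8 for 5-azacytidine, and 20 and 12 for the combined treatment. Of these 52 listings 47 were lower and 5 higher. Only 1 of the 52 (1.92%, 0.0487 to 10.3) had another member within 100 bp in the same comparison. Of the 607 smaller differences 299 had one (49.3%, 45.2 to 53.3). CHH listings outside the window were not counted as neighbours. Likewise 42 of the 52 (80.8%) were the only member near their gene in that comparison, against 111 of 607 (18.3%). Pooled over comparisons their median q-value was 0.0338 against 0.0196. The order differed by comparison, with medians of 0.0343 against 0.0171 for 5-azacytidine and 0.0366 against 0.0201 for the combined treatment, but 0.00789 against 0.0252 for heat, which has 5 such sites. The read coverage of these sites was not analysed here, so its part in the result was not tested.

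**Figure D3:**
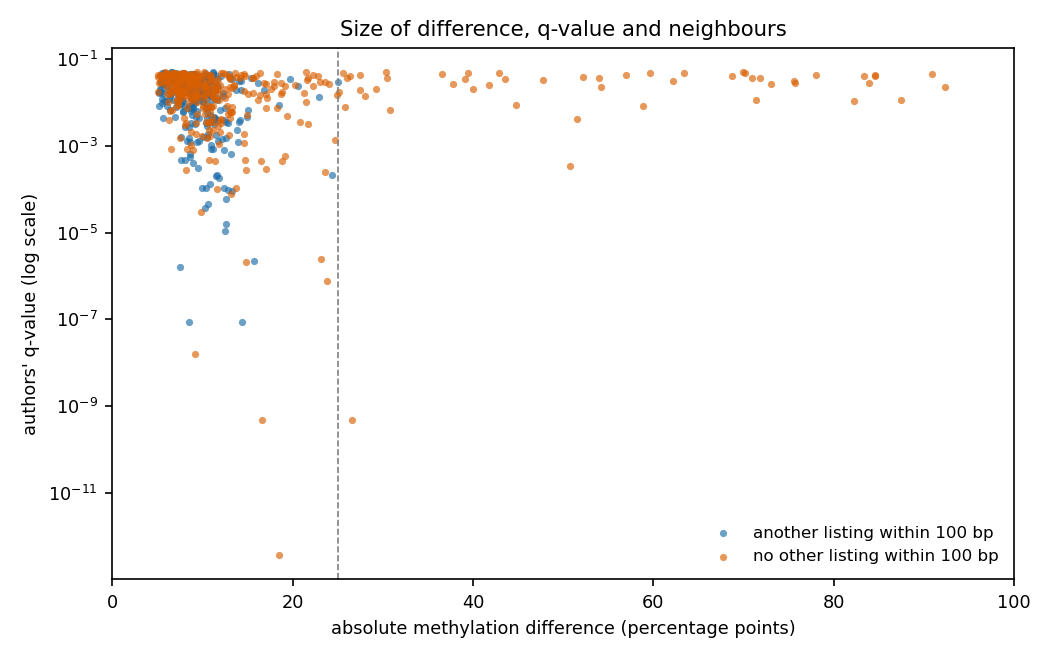
The authors' q-value (y axis, log scale) against the absolute methylation difference (x axis, percentage points) for the 659 members, coloured by whether another member of the same comparison lies within 100 bp. CHH listings outside the window were not counted as neighbours. Right of the dashed line at 25 points all but 1 of the 52 sites have no other member that close. Their q-values run from 4.75e-10 to 0.0497 with a median of 0.0338. The smallest q-value of all members, 3.71e-13, belongs to a difference of 18.5 points in size.

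Several of the large single-site differences lay near genes with a known family. Upstream in the combined comparison, the authors' deposited table gives -87.5 points 5644 bp before Lus10006941, a VQ-motif protein gene (a family of plant transcription cofactors), and -84.0 points 7754 bp before Lus10028103, an AHA1 co-chaperone gene, whose product helps HSP90 and stimulates the chaperone's ATPase. Downstream in that comparison the authors' deposited table gives -84.6 points at 8091 bp for Lus10003782, a polygalacturonase, which cuts pectin, and -75.6 points at 3912 bp for Lus10042537, related to the receptor kinase ANXUR1. The site 6938 bp downstream of the start of Lus10011640, a proteasome beta subunit, stands at -69.9 points in the authors' deposited table. For 5-azacytidine alone the authors' deposited table puts the lowest downstream sites at -90.9 points at 3527 bp for Lus10043009, related to CDC20, which activates the anaphase-promoting complex, and -75.7 points at 4938 bp for Lus10015942, a guanine deaminase of purine breakdown. Upstream of Lus10014850, described as cytochrome P450 90A1 (a brassinosteroid synthesis enzyme in Arabidopsis), the authors' deposited table gives -53.9 points at 2058 bp. All of these q-values lie between 0.0112 and 0.0497.

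The 5 large rises lay near 5 different genes. In the combined comparison the authors' deposited table gives 71.0 points 4480 bp downstream of the start of Lus10030332, without a description, and 70.1 points 2159 bp upstream of Lus10024456, described as the spindle checkpoint protein MAD1, which delays chromosome separation until chromosomes are attached. A further combined site, 2811 bp upstream of Lus10024541, has 37.8 points in the authors' deposited table. After 5-azacytidine alone the authors' deposited table has 58.9 points 6772 bp downstream of the start of Lus10004791, described as a trigger factor chaperone, which helps new proteins fold, and 47.8 points 2667 bp upstream of Lus10024818, an isoflavone hydroxylase. None of these 5 sites is listed in a second comparison.

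Members were spread unevenly over genes. Genes with 5 or more members over all comparisons hold 60.7% of them, against 60.7% of the listings up to 2 kb, 79.8% of those beyond 10 kb and 72.6% of all CHH listings, counted alike. The 3 genes with the most members hold 74 listings (11.2%) and the 10 with the most hold 178 (27.0%), while 82 of the 184 genes have 1 member each. At least 5 members in 1 comparison were found for 28 genes, 16 upstream and 12 downstream, with 338 listings. That number was reached by 0 of 35 genes in the heat comparison, 6 of 90 for 5-azacytidine and 26 of 152 for the combined treatment. Over all CHH listings, counted alike, it was reached by 3 of 78, 22 of 191 and 61 of 295 genes, in the same order. The comparisons also differ in their number of listings. For 19 of the 28 genes all CHH listings lay inside the window. Of all 184 member genes only 35 also had nearer or farther CHH listings, so this was no trait of the 28. By chromosome, 15 holds 102 listings (15.5%) and 3 holds 92 (14.0%), down to 6 on chromosome 11. On chromosome 15, 27 are those of Lus10013093 and 20 those of Lus10011220. On chromosome 3, Lus10017173, Lus10007981 and Lus10007390 have 25, 16 and 15. Chromosome shares of all CHH listings are not given here.

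Downstream, Lus10013093 on chromosome 15, without a description, has the most members, with 1 heat, 3 5-azacytidine and 23 combined listings spread from 2127 to 9491 bp, all lower. Its combined differences run from -25.1 to -7.09 points, with a median of -8.94. Lus10017173 on chromosome 3, of the ST5 family (named after a human gene, suppression of tumorigenicity 5), has 2, 6 and 17 listings between 7454 and 9504 bp. All 25 are lower, and the combined differences have a median of -8.39 points and run from -16.2 to -5.20. Near Lus10008540 on chromosome 8, a serine/threonine protein kinase, 0 heat, 6 5-azacytidine and 16 combined listings lie between 2318 and 5279 bp, all lower, with medians of -12.7 points for 5-azacytidine and -9.92 for the combined treatment. Lus10034077 on chromosome 6, a homoserine dehydrogenase of amino acid synthesis, has 0, 5 and 9 listings from 5540 to 8131 bp, of which 13 are lower and 1 is higher. The other downstream genes with 5 or more are Lus10003996 and Lus10011702, described with the rises, and Lus10020285, Lus10010381, Lus10009854, Lus10040533 (a glucosyltransferase), Lus10005821 and the rhomboid-like Lus10023789, whose members are all lower.

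Upstream, Lus10011220 on chromosome 15, without a description, has 1, 4 and 15 listings between 5845 and 9435 bp. Of its combined sites 14 of 15 are lower, with a median of -7.84 points, and 1 at 5896 bp is higher (10.9 points in the authors' deposited table). Lus10007981 on chromosome 3, a nucleotide pyrophosphatase, has 1, 6 and 9 listings packed between 5383 and 6340 bp, all lower, with medians of -12.0 points for 5-azacytidine and -9.80 for the combined treatment. Lus10010175 on chromosome 9 is related to SDE3, an RNA helicase that takes part in RNA silencing in Arabidopsis. It has 2, 2 and 8 listings between 3572 and 4287 bp, all lower, with combined differences from -15.6 to -8.98 points. Lus10034637 on chromosome 13, a protein kinase relative, has 2, 5 and 4 listings between 2171 and 2787 bp, and here 5-azacytidine alone has more listings than the combined treatment. For Lus10019386, an indole-3-acetaldehyde oxidase (an enzyme class linked to auxin synthesis), 6 combined listings lie within 345 bp, from -13.9 to -9.00 points, and none is listed for heat or for 5-azacytidine alone. The other upstream genes of this kind include Lus10007390, Lus10024541, Lus10010362 (a cysteine-rich repeat secretory protein), Lus10002410 (a vesicle fusion protein), Lus10013917 (a sterol regulatory element-binding protein family member) and Lus10005822 (a glucuronoxylan methyltransferase).

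**Figure D4:**
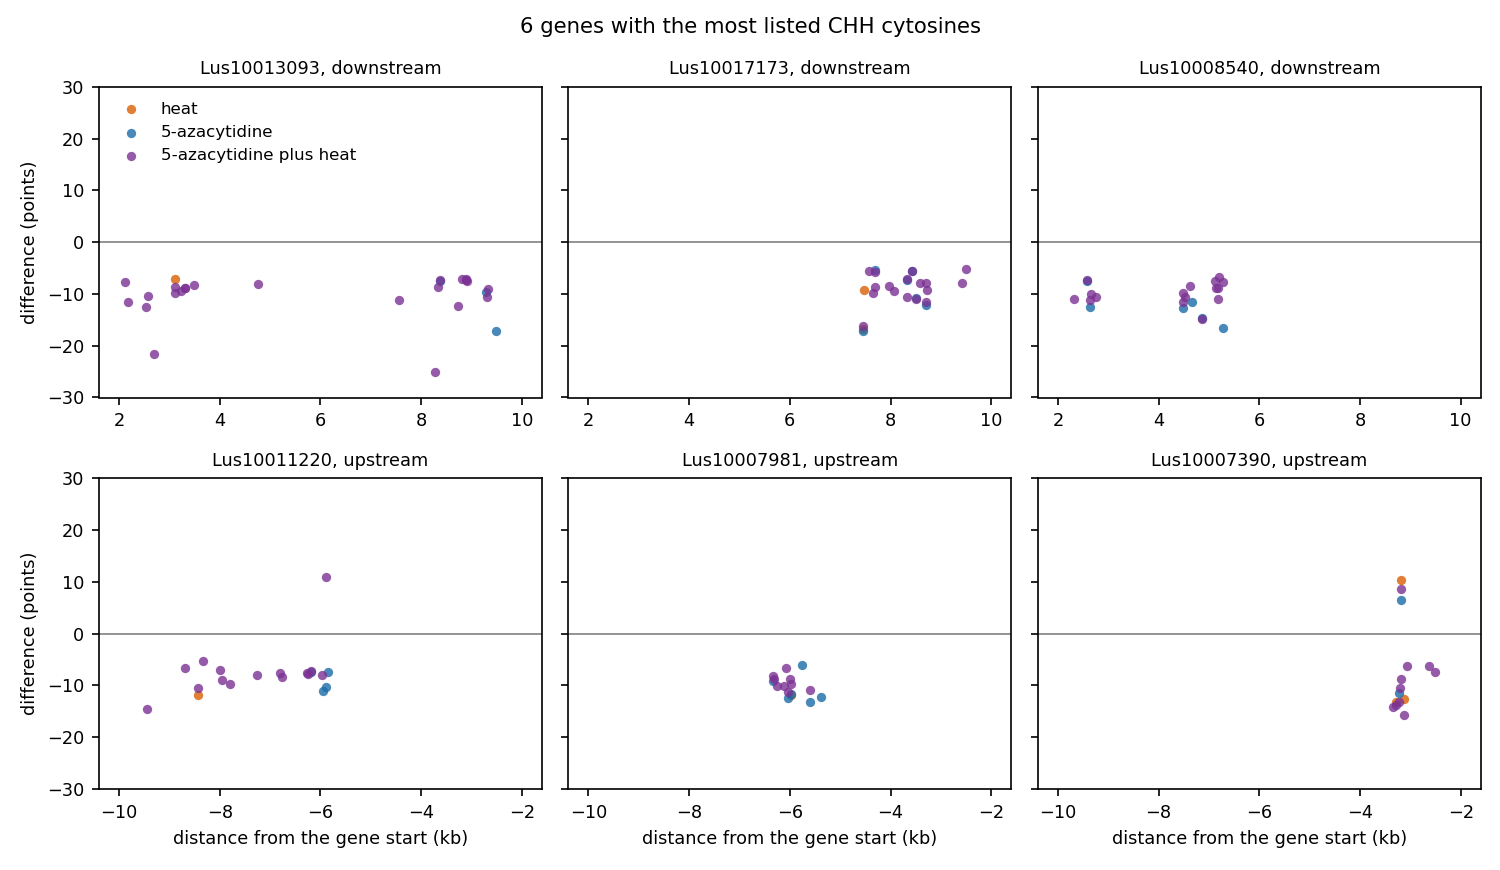
Methylation difference (y axis, percentage points) of each member near the 6 genes with the most members, by distance from the gene start (x axis, kb), coloured by comparison. The points of Lus10017173, Lus10007981 and Lus10007390 fill a small stretch of the window, while those of Lus10013093 reach from 2127 to 9491 bp. Points above 0 occur near Lus10011220 and Lus10007390.

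Close neighbours were more frequent in the combined comparison, which also has the most listings. Members with another member within 100 bp were 104 of 227 upstream (45.8%) and 127 of 202 downstream (62.9%), in 39 and 49 runs. For 5-azacytidine they were 29 of 89 (32.6%) and 30 of 94 (31.9%), in 12 and 14 runs, and for heat 8 of 31 (25.8%) and 2 of 16 (12.5%). Shares of close neighbours over all CHH listings are not given here, so these values are not read as a trait of the window. The longest run spans 267 bp, upstream of Lus10013917, with 5 combined sites, all lower. The run with the most sites is upstream of Lus10007390, a bifunctional nuclease relative (enzymes that cut RNA and DNA), with 8 combined sites over 261 bp, 7 lower and 1 higher.

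Of the 581 cytosines, 508 were listed in 1 comparison, 68 in 2 and 5 in all 3. Upstream 40 of 304 and downstream 33 of 277 were listed more than once. The 659 member listings thus hold 73 repeated cytosines, beside 172 in all 1596 CHH listings, a similar proportion. On chromosome 10 at position 5825304, 6987 bp upstream of a gene whose identifiers do not pair, the authors' deposited table gives -26.6 points for heat, -23.2 for 5-azacytidine and -23.8 for the combined treatment. The downstream site of Lus10017173 at 7454 bp has -16.8, -17.1 and -16.2 points in the authors' deposited table, in the same order. The values of Lus10003996 at 4289 bp downstream are -10.9, -13.2 and -14.9 points in the authors' deposited table, and those of Lus10007981 at 5976 bp upstream are -11.9, -11.7 and -9.80. The fifth of these cytosines, 3178 bp upstream of Lus10007390, is higher in all 3, with 10.3, 6.56 and 8.63 points in the authors' deposited table. Each of the 5 kept its direction, with a control library in common and no replicate error to set the values against.

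Sites listed for both treatments that included 5-azacytidine could also be large. Upstream of Lus10022099 at 3367 bp the authors' deposited table gives -84.6 points for 5-azacytidine and -83.3 for the combined treatment, and upstream of Lus10001769 at 4838 bp it gives -43.5 and -51.5. For heat and the combined treatment, the site 2319 bp upstream of Lus10005725 has -22.3 and -21.6 points in the authors' deposited table. These 3 genes have no description. The site 2959 bp upstream of Lus10004317, related to the metal transporter NRAMP2, has -15.9 points for heat and -14.7 for the combined treatment in the authors' deposited table. Of the 73 cytosines listed more than once, 1 changed direction: 7396 bp downstream of the start of Lus10011702 the authors' deposited table gives 11.0 points for 5-azacytidine and -8.47 for the combined treatment.

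The 28 higher listings were 3 for heat, 15 for 5-azacytidine and 10 for the combined treatment, 16 of them upstream. Near Lus10011702, 5 of 9 5-azacytidine sites were higher, from 7.67 to 14.4 points, while all 4 of its combined sites were lower, from -9.22 to -7.86 points. Near Lus10003996, described as SPO11, the enzyme that cuts DNA to start meiotic recombination, 2 of 4 5-azacytidine sites were higher (13.0 and 9.00 points in the authors' deposited table), as was 1 of 9 combined sites (18.4 points). The 3 heat rises in the authors' deposited table were all upstream, with 11.0 points for Lus10039989 (a PLATZ zinc-dependent transcription factor), 10.4 points for Lus10024541 and 10.3 points for Lus10007390. Upstream of Lus10010362 the authors' deposited table has 7.51 points for 5-azacytidine with q = 1.59e-06, the smallest q-value among the upstream members of that comparison.

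CG and CHG sites listed in the same stretches did not always share the direction of the CHH sites. A CG or CHG listing of the same comparison lay within 100 bp of 49 of the 659 members (7.44%). For 22 of these all such neighbours had the member's direction, for 23 all had the opposite direction and for 4 they were mixed. These members lie near few genes, among them 8 5-azacytidine members of Lus10011702 and 6 combined members of Lus10007390. The matching shares over all CHH listings are not given here, so the split is not read as a trait of the window. Near Lus10011702 after 5-azacytidine, 4 of 4 CG sites and 13 of 14 CHG sites were lower, with medians of -11.8 and -17.2 points, beside CHH sites of which 5 of 9 were higher. Upstream of Lus10007390 in the combined comparison the authors' deposited table lists CG sites with 16.7 and 14.0 points, while 9 of 10 CHH sites were lower. The member with the smallest q-value in the window, 2090 bp upstream of Lus10024541, stands at -18.5 points for heat (q = 3.71e-13) and -16.7 points for the combined treatment (q = 4.70e-10) in the authors' deposited table. Beside it, at 2105 bp upstream, the authors' deposited table has a CG site that was higher, with 24.6 and 21.0 points. Upstream of Lus10008728, in contrast, the authors' deposited table gives -21.9 and -21.5 points for 2 CG sites and -18.6 points for a CHG site in the combined comparison, where 5 of 5 CHH sites were also lower.

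**Figure D5:**
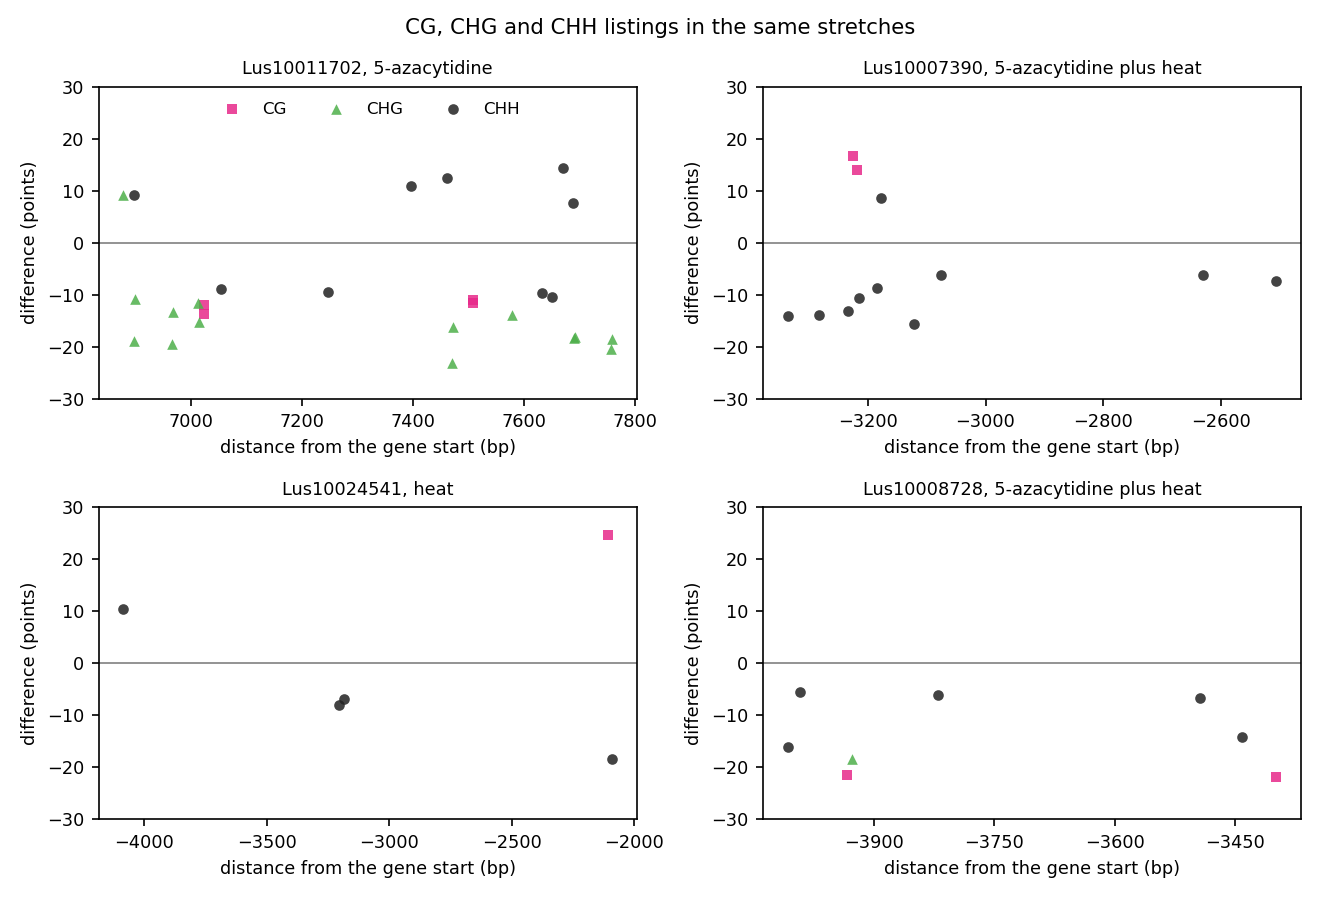
Methylation difference (y axis, percentage points) of CG (squares), CHG (triangles) and CHH (circles) listings by distance from the gene start (x axis, bp) in 4 gene and comparison pairs. CHG and CG sites are mostly below 0 near Lus10011702, where 5 of 9 CHH sites are above 0. CG sites are above 0 near Lus10007390 and Lus10024541 among mostly lower CHH sites, and all contexts are below 0 near Lus10008728.

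Gene families were read from the authors' descriptions, which exist for 123 of the 184 genes, and grouped by words in them. Over all CHH listings together 95.8% were lower, and the list counts are to be read against that share. Kinases, receptors and phosphatases (signalling) had 47 listings near 7 genes, all lower, with a median of -9.85 points, and 22 of the 47 are those of Lus10008540. Transport had 25 listings near 7 genes, 24 lower. Its 3 sites upstream of Lus10008263, 1 in each comparison and all different, have -39.2, -25.5 and -26.4 points in the authors' deposited table for heat, 5-azacytidine and the combined treatment. The exception is Lus10028202, a plasma membrane ATPase, with 12.7 points 2179 bp downstream for 5-azacytidine in the authors' deposited table.

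RNA and translation had 25 listings near 7 genes, all lower, of which 12 belong to Lus10010175. Matched through the word helicase, this list also holds Lus10007172, the SWR1 helicase, a chromatin remodeller that exchanges histones, with -59.6 and -42.8 points at 8111 and 9334 bp downstream in the authors' deposited table for the combined treatment. Redox had 23 listings near 6 genes, 22 lower, but 14 of them belong to Lus10034077, the homoserine dehydrogenase, which serves amino acid synthesis. At 4436 bp upstream of the peroxidase Lus10000626 the authors' deposited table has -52.2 points for the combined treatment. The redox words leave out Lus10024818, described as an isoflavone monooxygenase, with 47.8 points for 5-azacytidine in the authors' deposited table. They also leave out Lus10040183, a peroxisomal acyl-coenzyme A oxidase with 7 listings, all lower. The protein turnover list had 20 listings near 7 genes, 15 lower and 5 higher, and the 5 higher ones are those of Lus10011702.

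The remaining lists were small. By the words used, transcription factors had 9 listings near 6 genes, 8 lower. Among them are 3 listings upstream of Lus10016948, a MYB relative, from -10.5 to -10.1 points. The words leave out Lus10013917 and the GRAS domain gene Lus10014786, with 7 and 5 listings, all lower. Cell wall and fibre had 8 listings near 4 genes, all lower, of which 5 lie downstream of the start of Lus10018651, related to a xyloglucan glycosyltransferase, a maker of wall polymers. Heat shock and chaperones had 4 listings near 3 genes, 3 lower and 1 higher. None is in the heat comparison, which holds only 47 of the 659 members, so nothing can be read from that. DNA methylation and chromatin had 7 listings near 2 genes, all lower, but 6 belong to Lus10005822, whose enzyme methylates the wall polymer glucuronoxylan. The other is 9975 bp downstream of the start of Lus10001729, a SU(VAR)3-9-related histone methyltransferase, with -8.61 points in the authors' deposited table. Hormone had 2 listings, with 18.7 points upstream of Lus10037443, an auxin-responsive protein, and -22.8 points downstream for Lus10012675, an abscisic acid 8'-hydroxylase, both for the combined treatment in the authors' deposited table. The words leave out Lus10014850, linked above to brassinosteroid synthesis, with -53.9 points for 5-azacytidine in the authors' deposited table. They also leave out Lus10019386, linked above to auxin synthesis, with 6 combined listings, all lower.

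The nearest gene start split some stretches between 2 genes. On chromosome 3 the members of Lus10007981 begin 181 bp from a site assigned to Lus10007980, a homologue of the ribosome biogenesis protein BMS1, at 6390 bp downstream of its start, with -9.39 points for heat and -10.8 for 5-azacytidine in the authors' deposited table. On chromosome 10 members of Lus10039449 and Lus10002973 are 905 bp apart, and on chromosome 4 members of Lus10000435 and Lus10010381 are 1107 bp apart. At the edges of the window, just inside 2000 bp the authors' deposited table has -14.1 points at 2029 bp before Lus10039784, a galacturonosyltransferase relative of pectin synthesis, and just outside it -7.81 points 1999 bp upstream of Lus10024541. Downstream the nearest sites are -7.96 points at 2003 bp for Lus10015034 and, outside, -6.22 points at 2000 bp for Lus10002973 in the authors' deposited table. At the far edge the authors' deposited table has -8.70 points at 9997 bp before Lus10001656, a sugar transporter relative, against -21.0 points 10006 bp upstream of Lus10011499. Downstream, Lus10021771, an ARF exchange factor of vesicle traffic, has -27.5 points at 9997 bp and Lus10008474 -55.8 points at 10009 bp in the authors' deposited table.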

How the data were processed

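Whole-genome bisulfite libraries of 4 flax groups (1 library each, 2 x 150 bp reads per the labels) were processed with methylKit, MethylDackel, BWA, FastQC and Trimmomatic, per the submitters' processing notes, listed without roles. Tool versions and the genome build were not given in the sources used here. As files the authors deposited tables of single cytosines with a methylation difference, a score in percentage points, and p-values and q-values, all their own. In the 3 CHH tables the highest q-value is 0.0499 and the smallest absolute difference 5.01 points. The sign was read as treated minus control, the methylKit convention, which the files do not state. If it is coded the other way, higher and lower swap.

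Distances to the transcription start and gene identifiers are those of the deposited tables. All 196 CHH genes with 2 or more cytosines imply 1 start within 1 bp, and all 172 repeated CHH cytosines carry 1 distance. Of the member genes, 4 have identifiers that do not pair and were left without a description. A few listed identifiers, such as Lus10023789, also occur within such a pair. Positions are deposited starts, possibly off by 1 bp. The strand column was not used. No reference sequence was used. Counts, shares with exact binomial 95% intervals, medians with order-statistic intervals, 1000 bp bins, runs (gaps up to 100 bp) and neighbours within 100 bp were computed in Python 3.11.15 with pandas 2.3.3 and scipy 1.17.1. The counting step was tested on simulated listings. With 1 library a group, no test was made. Depth is unknown, so coverage could not be weighed.

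Members, gene lists and the naming rule were chosen with earlier results of these data known. The rule names, per comparison and side, the 3 largest falls and rises, genes with 5 or more members in a comparison, cytosines in 2 or more comparisons (10 largest), 2 sites per gene list and sites at the window's edges, described genes first. Sites in CG and CHG contexts, the smallest q-values and the genes that share a stretch were added after their values were seen. Alternatives were q below 0.01, differences of at least 10 points, distances up to 5000 bp, 1 value per gene, and the gene with the most members left out.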

Additional observations from a re-analysis of the deposited data

How the results depend on the processing

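Shares of members lower than the control and median absolute differences, for 3 comparisons and both sides, were recomputed under 5 other settings, giving 54 values. Of these 47 stayed within the interval of the reported value and 7 moved beyond it. A reversal of direction was possible for the 30 shares only, and 0 reversed. The 24 medians are of absolute differences and could not reverse. The shares ran from 72.7% to 100% and the medians from 9.04 to 12.6 points.

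With only q-values below 0.01, the share lower for 5-azacytidine downstream was 72.7% (54.5 to 86.7), and the medians were 11.2 points for 5-azacytidine upstream, 10.8 for the combined treatment upstream and 10.5 downstream. With distances up to 5000 bp the downstream medians were 11.5 points for 5-azacytidine and 10.2 for the combined treatment. With 1 value per gene the combined upstream median was 10.7 points. The cause was not tested. Medians under a limit on the difference were not computed, since that limit sets them.

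No paired analysis was possible because each group is 1 library. Unknown depth limits every single-site value, and membership rests on the deposited limits on q and difference.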
